A study of Arabidopsis thaliana with 18 samples.

Results

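In root tips of Landsberg erecta (Ler), 75 loci of the Arabidopsis thaliana genome gave reads in every library, while Columbia (Col) root tips gave almost none. These loci were chosen by rule from the counts themselves. A locus had to be listed in all 18 libraries, to average at least 1 CPM (counts scaled to a common library total) over the 9 Ler libraries, and to have fewer than 9 counts summed over the 9 Col libraries. The 75 were drawn from 32852 loci listed in all 18 libraries, and they make up 0.402% of the 18657 loci that reached 1 CPM in Ler. With the ecotypes exchanged, the same rule gave 104 loci. The glucosinolate genes AOP3, AOP2, ESP and MAM1 were left out by the rule. Of these, AOP3 alone would have met it, at 6.31 CPM in Ler and 3 counts over Col.

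Col and Ler are inbred natural lines (ecotypes), both labelled wild type, and Ler also carries a mutation in the receptor kinase gene ERECTA. Seedlings of both ecotypes grew for 7 days on medium with 500 µM phosphate before their roots were moved on a nylon mesh to medium lacking phosphate. Tips of about 0.5 cm were taken at 1 h and 2 h. The 0 h samples are described in one label field as untreated and in another as moved to fresh medium with phosphate. There were 3 libraries for each ecotype at each time, which the series text calls biological replicates. RNA was poly(A)-selected and sequenced by a strand-specific protocol. Library totals were 23451068 to 29277597 counts in Col and 23755413 to 28031291 in Ler. All 12 root apex markers examined had a median of at least 1 CPM in both ecotypes. Summed, they were at 578 to 799 CPM in Col and lower, at 475 to 563 CPM, in Ler. The highest of them, CASP1, had medians of 229 CPM in Col and 159 CPM in Ler. The medians of PLT1, WOX5, SMB and BRN1 were higher in Ler and those of the others lower. The part of these differences in the results was not tested. The 5 pollen and seed markers summed to no more than 0.389 CPM in any library. The 7 shoot and leaf markers summed to 22.3 to 45.9 CPM in Col and 21.2 to 64.6 CPM in Ler.

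Natural lines of Arabidopsis differ in gene content as well as in sequence. Differences of presence and absence are known to gather in tandem arrays of immune receptors and of enzymes of specialised metabolism, and in transposons. The reference genome and its annotation describe Col. Loci annotated there as pseudogenes include transposon copies, such as the Sadhu retrotransposon SADHU5-2. The class is thus not limited to genes broken in Col. The deposited counts name loci by Col identifiers, and a locus whose sequence exists only in Ler was not analysed here. How reads matching several loci were counted, and whether Ler reads were aligned to a Ler sequence, is not given in the sources used here.

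The highest protein-coding member at 0 counts in all Col libraries was PRA1.A3 (AT3G11397, chromosome 3, bases 3576017 to 3578082, plus strand in TAIR10.1), a prenylated Rab acceptor, which belongs to a family of small membrane proteins of vesicle traffic. Its closest protein in the genome is PRA1.A2 (AT5G05987), of the same length and 84.2% identical. The first 120 coding bases of both genes are shown because the pair tells how far apart in sequence a silent and an active relative are. The bases that differ, 14 of 120, are in capitals. The sequences are from the TAIR10.1 assembly, plus strand, at chr3:3576173-3576292 in PRA1.A3 and at chr5:1804881-1805000 in PRA1.A2.
PRA1.A3: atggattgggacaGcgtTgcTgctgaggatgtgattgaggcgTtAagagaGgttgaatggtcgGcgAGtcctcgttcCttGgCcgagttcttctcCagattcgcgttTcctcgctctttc
PRA1.A2: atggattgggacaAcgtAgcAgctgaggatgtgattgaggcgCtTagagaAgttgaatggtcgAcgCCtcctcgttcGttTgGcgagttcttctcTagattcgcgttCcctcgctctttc
Over their coding sequences of 630 bases the longest run of identical bases was 45. PRA1.A3 was at 31.9 ± 3.44 CPM (SD, n = 9) in Ler. PRA1.A2 was at 13.8 ± 1.23 CPM in Col and 17.0 ± 1.89 CPM in Ler (SD, n = 9 each), a rise in Ler of 0.25 on the log2 scale (SE 0.07, adjusted p = 0.0148). The relative was thus read in both ecotypes and PRA1.A3 in Ler alone.

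A second pair comes from the copper amine oxidases, enzymes that oxidise amines and release hydrogen peroxide. AT4G12280 encodes 300 residues against 741 in its neighbour AT4G12290, to which it is 92.3% identical. The first 120 coding bases of AT4G12280 are set against the stretch of AT4G12290 that matches them, coding bases 1324 to 1443, with the 17 differing bases in capitals. Both are spliced coding sequence on the plus strand of TAIR10.1, spanning chr4:7301769-7302022 and chr4:7305757-7305987.
AT4G12280: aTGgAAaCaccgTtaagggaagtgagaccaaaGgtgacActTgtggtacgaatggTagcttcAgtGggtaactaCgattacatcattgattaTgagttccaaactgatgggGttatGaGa
AT4G12290: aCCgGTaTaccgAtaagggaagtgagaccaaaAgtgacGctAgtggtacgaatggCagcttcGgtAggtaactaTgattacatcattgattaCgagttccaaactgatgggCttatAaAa
The longest run of identical bases between these coding sequences was 44.

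The summed counts show how complete the contrast was. The 75 loci together gave 8796 to 14108 counts in a Ler library and 10 to 29 in a Col library. Per total count, Col held 0.143% of what Ler held. This is what the rule selected, so it is given as a description with no test. In these whole root tips, fewer cells of a type and less RNA per cell cannot be told apart. In Col, 25 loci had no count in any library, 35 had 1 to 3 counts over the 9 libraries and 15 had 4 to 8. No locus exceeded 4 counts in any Col library. A total of 3 counts over the 9 Col libraries corresponds to 0.0129 CPM, and against this limit the loci at 0 were at least 88.4-fold to 2468-fold higher in Ler. Such limits cover counting error only.

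In Ler every locus had counts in all 9 libraries, and 47 reached 1 CPM in every one. The levels were mostly low. The median was 3.18 CPM, against 20.1 CPM over all loci at 1 CPM or more in Ler. At 10 CPM or more were 10 loci, which held 50.7% of the summed CPM, and 31 lay under 2 CPM. The median coefficient of variation over the 9 Ler libraries was 25.5%, and 28.9% among members at 1 to 10 CPM, where all loci of that level had 24.5%.

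**Figure D1:**
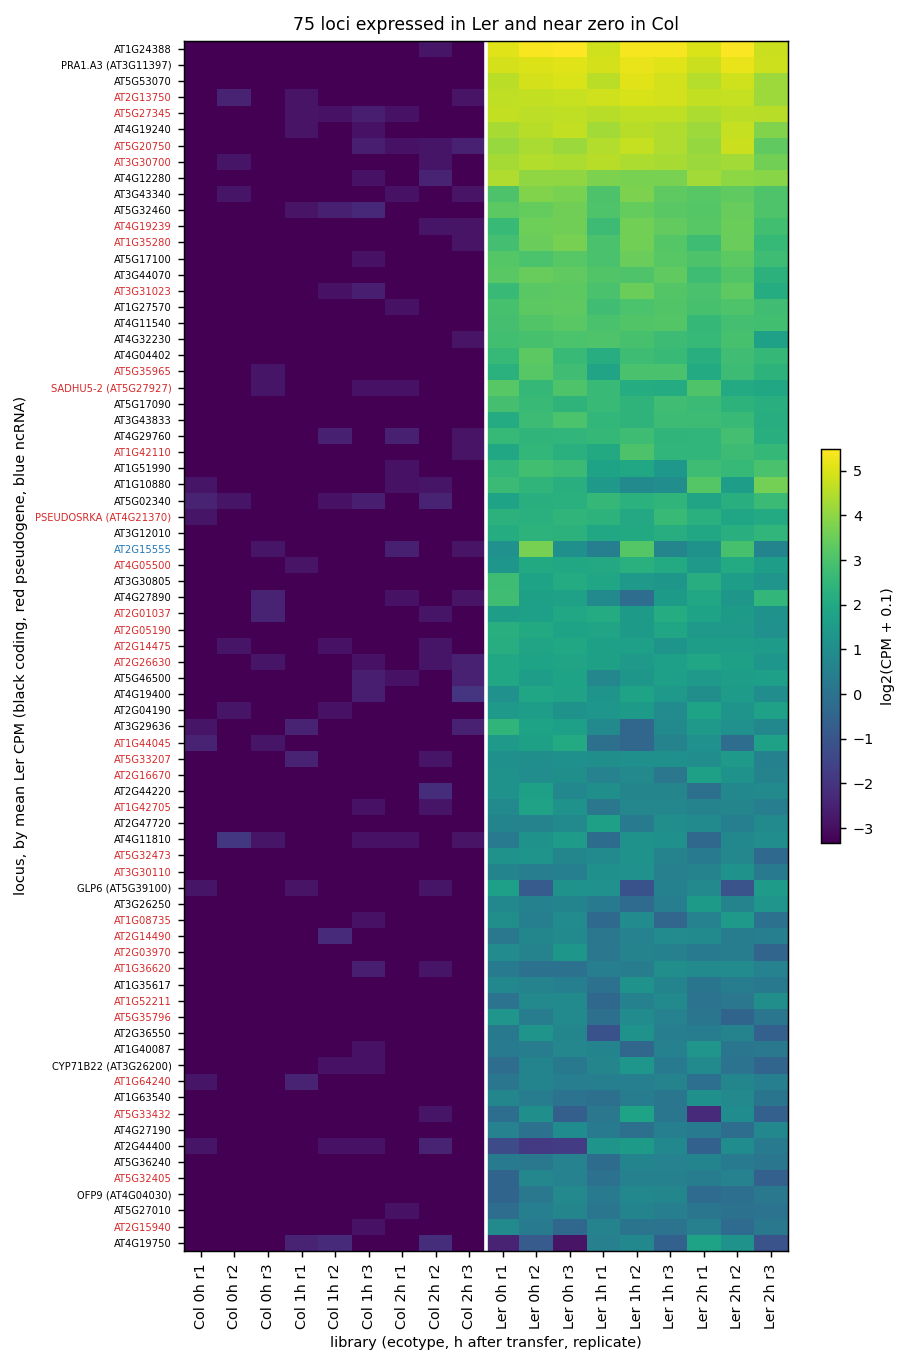
Level of the 75 loci (rows, by mean Ler CPM; black names protein-coding, red pseudogenes, blue noncoding RNA) in the 18 libraries (columns), as log2(CPM + 0.1). The 9 Col columns are dark throughout, with no locus above 4 counts in a library, and the 9 Ler columns run from 36.9 CPM on average at the top to 1.11 CPM at the bottom.

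By mean CPM the first locus was AT1G24388 (chromosome 1, bases 8648099 to 8648694, minus strand), annotated as an uncharacterized protein. Its lowest, median and highest Ler values were 27.5, 40.8 and 44.8 CPM, and it had 1 count over the 9 Col libraries. It overlaps AT1G24390 on the opposite strand for 42.8% of its exon length, and that locus gave 0.185 CPM in Ler and none in Col. PRA1.A3 ranged from 27.3 to 36.7 CPM in Ler with a median of 32.4. AT5G53070, annotated as ribosomal protein L9/RNase H1, ranged from 18.3 to 34.2 CPM with a median of 29.1 and also had 0 counts in every Col library. It shares 12.6% of its exon bases with RCF3 on the same strand, and RCF3 was at 21.1 CPM in Col and 23.8 CPM in Ler. For all 3 loci the lowest Ler value lay far above the highest Col value, a gap that the rule selects for. Per kilobase of exon, AT1G24388 was the highest of the 75 loci at 89.2 CPM, followed by AT3G43340 at 46.1, the pseudogene AT4G19239 at 36.5 and the pseudogene AT3G30700 at 31.5.

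Of the 10 loci with the highest CPM, 4 are annotated pseudogenes. AT2G13750 was at 26.2 ± 3.67 CPM and AT5G27345 at 23.8 ± 1.40 CPM (SD, n = 9 each). AT5G20750 was at 20.1 ± 5.27 CPM and AT3G30700 at 19.6 ± 3.24 CPM. The translated sequence of AT5G27345 matched AT5G15685 best, at 57.3% identity over 323 residues, and it varied least of the 75 loci, with a coefficient of variation of 5.88%. AT3G30700 has 41 other places in the genome at 90% identity or more over at least 50% of its length, so its reads may be shared with copies. The remaining coding loci of the 10 were AT4G19240 at 21.2 ± 3.72 CPM, AT4G12280 at 16.0 ± 2.93 CPM and AT3G43340 at 10.4 ± 2.39 CPM (SD, n = 9 each). AT3G43340 encodes 74 residues that are 91.9% identical to part of SVR1, a pseudouridine synthase of 410 residues.

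Pseudogenes were 32 of the 75, or 42.7%, against 1.05% of all loci at 1 CPM or more in Ler. They were also frequent with the ecotypes exchanged, at 26 of 104, so a high share of pseudogenes was found in both sets. As annotated, this class includes transposon-related loci. Protein-coding loci numbered 42, and 1 was a noncoding RNA, AT2G15555. The 5 chromosomes held 15, 15, 12, 15 and 18. In the annotation, more pseudogenes than protein-coding loci lay within 100 kb of 19 loci, or 25.3%, against 1.67% of the loci at 1 CPM or more in Ler and 10.8% of all listed loci. The median was 43 protein-coding loci and 9 pseudogenes around a member, and 56 and 2 around an expressed locus. Around pseudogene members it was 27 and 21, and around protein-coding members 52 and 4.5. No test was made of these differences.

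**Figure D2:**
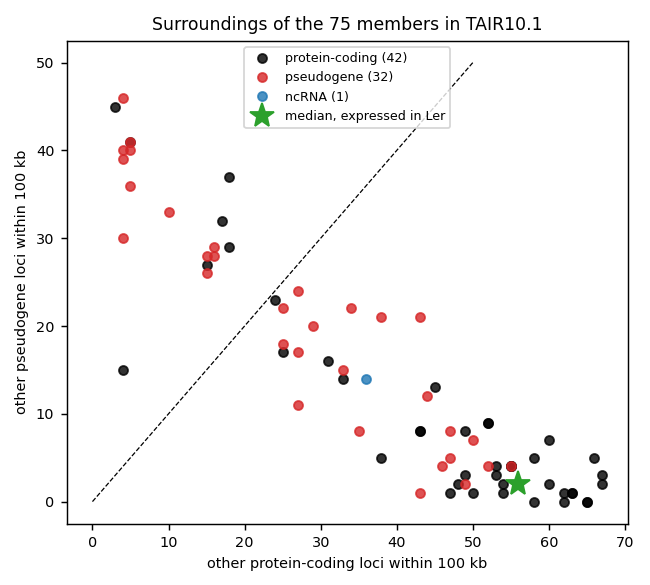
Number of other protein-coding loci (x) and pseudogenes (y) within 100 kb of each of the 75 loci in TAIR10.1, coloured by class, with the median of the loci at 1 CPM or more in Ler as a star and the line of equal numbers dashed. Above the line lie 19 loci, 12 of them pseudogenes.

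Copies in the Col sequence bear on what a count means. Another place in the genome at 95% identity or more over 50% of the length existed for 13 members, of which 10 were pseudogenes, and one at 80% or more for 38. For 39 of the 42 protein-coding members a related protein was found, with a median identity of 75.8%. Of these members 17 were shorter than 80% of the relative and 12 were under 50% of its length. The relative gave at least 1 CPM in Col in 21 cases and in Ler in 26, and in 18 cases it lay within 10 listed loci. Of the 39 relatives 27 could be tested between ecotypes. Ler was higher for 12 of them (44.4%) and lower for 4 (14.8%), where 16.5% and 16.1% of all tested loci were higher and lower. Some of the 12, such as AT3G54730 at 0.00429 CPM and AT2G36540 at 0.0969 CPM in Col, could be tested only through their Ler counts. Relatives with too few counts in both ecotypes were not among the 27. The share higher in Ler is thus raised by how loci came to be tested. Several of the relatives are also the members' neighbours, described next.

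Members that share exons with a neighbour on the same strand need particular care. AT2G47720 lies wholly inside the exons of GSTF8, a glutathione transferase gene, and was at 1.73 ± 0.569 CPM in Ler with 0 counts in Col. GSTF8 itself was at 1627 ± 242 CPM in Col and 1614 ± 379 CPM in Ler (SD, n = 9 each), a difference of -0.07 on the log2 scale (SE 0.13, adjusted p = 0.72). AT4G19400, annotated as a profilin family protein, shares 80.9% of its exon bases with the pectin acetylesterase gene AT4G19410, which was at 220 CPM in Col and 185 CPM in Ler. All 148 residues of the AT4G19400 protein are identical to part of the 517 of AT4G19410, its closest protein. The profilin label was thus not borne out by this closest match. In all, 5 members shared exon bases with a listed locus on the same strand.

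Most members had no other member close by. Within 5 listed loci of another member were 8 of the 75, in 4 pairs. How many the density of 75 among 32852 listed loci would give was not worked out. The pseudogenes AT2G14475 and AT2G14490, which overlap by 43 exon bases on the same strand, were at 3.18 ± 0.632 and 1.42 ± 0.297 CPM in Ler (SD, n = 9). AT4G19239, a pseudogene related to a beta-galactosidase, was at 9.52 ± 2.43 CPM beside AT4G19240. AT5G32460 encodes a protein with a B3 domain, a plant DNA-binding domain, and was at 9.75 ± 1.22 CPM near the pseudogene AT5G32473 at 1.64 ± 0.515 CPM. The fourth pair, AT5G17090 and AT5G17100, are cystatin/monellin family genes 48.4% identical in protein. Cystatins are inhibitors of cysteine proteases. They were at 5.84 ± 0.881 and 8.64 ± 1.29 CPM in Ler, with 0 and 1 counts over Col. The next gene of the array, AT5G17110, had 7 counts over the 9 Ler libraries and AT5G17120 had none in either ecotype. Levels above 1 CPM in the array were thus found at the 2 members.

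Among loci next to a member that were not members themselves, a larger share passed the test between ecotypes than among all tested loci. Of 144 such loci 69 could be tested. Ler was higher at 29 (42%) and lower at 15 (21.7%), against 16.5% and 16.1% of all tested loci. Of the 29, 21 were higher by at least 2-fold, as were 1187 of all 20599 tested loci. Some of the 21, such as SRS8 and AT1G52000 at 0 CPM in Col, could be tested only through their Ler counts. Taking 3 loci on each side gave 61 higher and 49 lower of 199 tested, or 30.7% and 24.6%. The other neighbours had too few counts for a test, and 41 of the 144 had no count in any library.

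**Figure D3:**
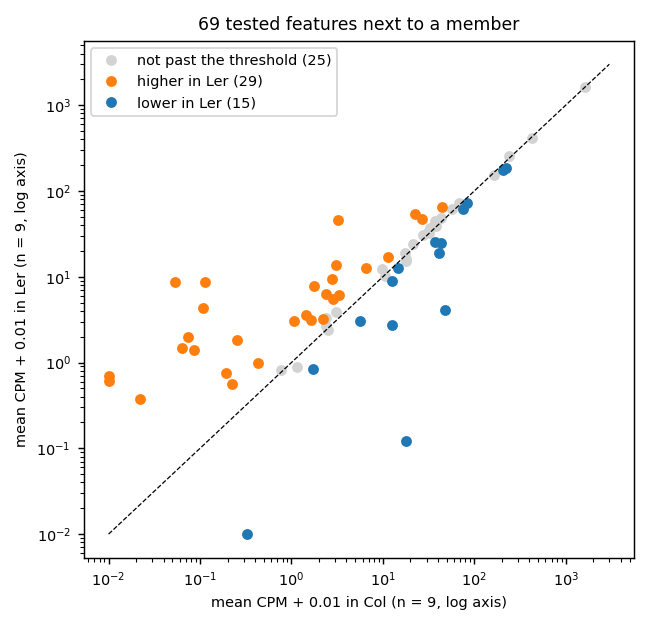
Mean CPM + 0.01 in Col (x) and in Ler (y), both on log axes, of the 69 tested loci next to a member, with the line of equality dashed. Orange points are the 29 loci higher in Ler and blue points the 15 lower in Ler at an adjusted p under 0.05; the orange points reach down to 0 CPM in Col.

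At the immune receptor genes the ecotypes differed in opposite directions along a short stretch of chromosome. Nucleotide-binding leucine-rich-repeat (NBS-LRR) proteins are intracellular receptors that detect pathogen effectors. AT5G46500, annotated as related to this class and 417 residues long, belongs to the locus of VICTR (AT5G46520), a receptor gene known for accession-specific arrest of root growth by the compound DFPM. In Ler AT5G46500 had a lowest, median and highest value of 1.59, 2.98 and 3.81 CPM, and in Col it had 5 counts in all. Its neighbour AT5G46490 was at 1.46 ± 0.295 CPM in Ler and 0.0530 ± 0.0453 CPM in Col (log2 difference 4.66, SE 0.36, adjusted p = 4.57e-08). The next 2 genes went the other way. VICTL (AT5G46510) was at 0.113 ± 0.104 CPM in Ler and 17.7 ± 2.61 CPM in Col (log2 difference -7.52, SE 0.24, adjusted p = 9.63e-13). VICTR was at 0.111 ± 0.106 CPM in Ler and 12.1 ± 2.39 CPM in Col (log2 difference -6.94, SE 0.29, adjusted p = 2.55e-11). On the other side, RPS6 was at 29.97 ± 3.38 CPM in Ler and 39.0 ± 7.68 CPM in Col. The ranges of Col and Ler libraries did not overlap at AT5G46490, VICTL and VICTR. At the member AT5G46500 the rule selected for such a gap.

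**Figure D4:**
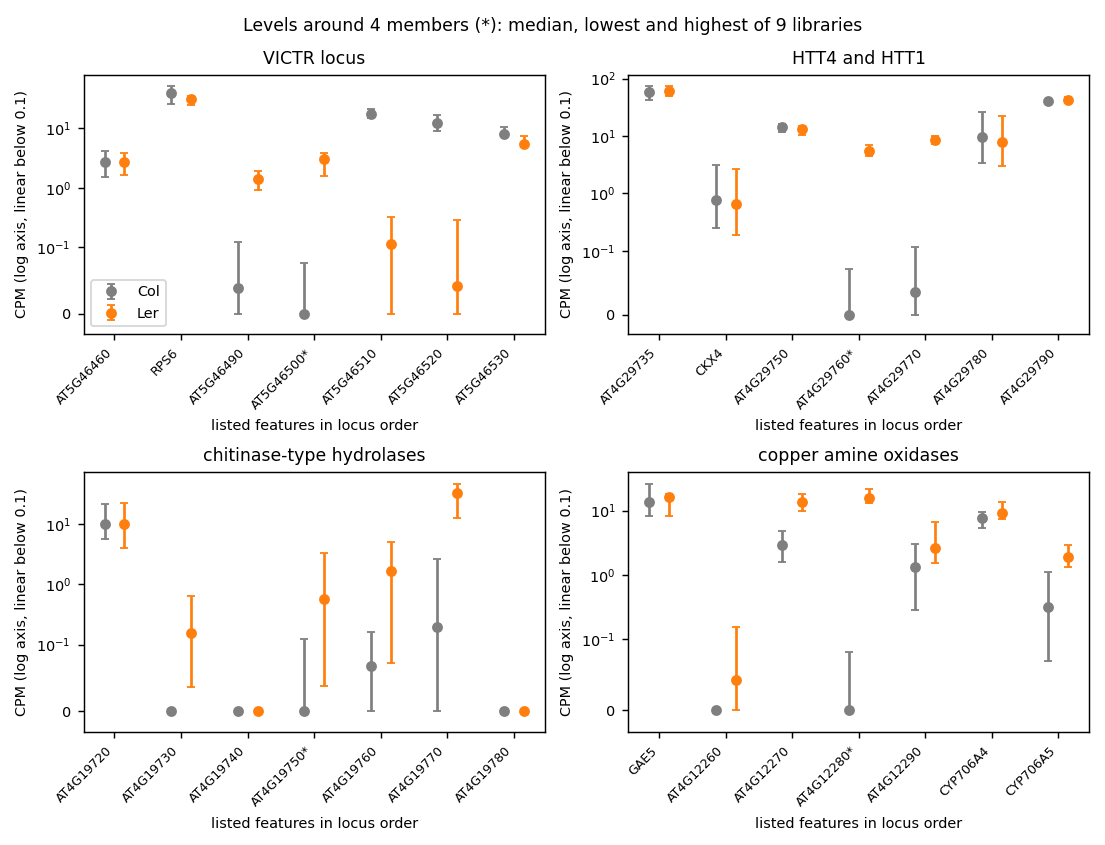
Level of 7 neighbouring listed loci around each of 4 members (marked *), as the median with the lowest and highest of 9 libraries in Col (grey) and Ler (orange), in CPM on an axis that is logarithmic above 0.1 and linear below. In the VICTR locus the ecotypes change places between AT5G46500 and AT5G46510, and in the HTT locus only the 2 middle genes of the 7 have separate ranges. The rule set the direction at the marked members.

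A pair of heat-induced targets of TAS1 small RNAs, a family known to act in thermotolerance, stood side by side. HTT4 (AT4G29760) ranged from 4.5 to 7.09 CPM in Ler with a median of 5.49 and had 5 counts over Col. HTT1 (AT4G29770) missed the rule with 10 counts over Col. It was at 8.68 ± 0.935 CPM in Ler and 0.0426 ± 0.0365 CPM in Col (log2 difference 7.72, SE 0.21, adjusted p = 1.60e-13). The gene before them, AT4G29750, was at 12.8 CPM in Ler and 14.6 CPM in Col, and AT4G29790 beyond them was at 42.9 and 41.0 CPM. HTT1 missed the rule narrowly and could be tested only through its Ler counts. Its difference is thus little freer of selection than that of HTT4, which the rule set. At AT4G29750 the difference was small and passed as lower in Ler (log2 difference -0.24, SE 0.07, adjusted p = 0.0123).

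Enzyme genes in tandem made further such groups. The amine oxidase AT4G12280 had 3 counts over Col and 13.0 to 21.6 CPM in Ler. On one side AT4G12270 was at 13.6 ± 2.99 CPM in Ler and 3.10 ± 1.09 CPM in Col (log2 difference 2.12, SE 0.15, adjusted p = 2.37e-08). On the other, AT4G12290 was at 3.61 ± 1.84 and 1.44 ± 1.03 CPM (log2 difference 1.295, SE 0.40, adjusted p = 0.0205). Both neighbours of the member were thus higher in Ler. The size of the member's own difference was set by the rule, so it is not compared with theirs. Among glycosyl hydrolases with a chitinase insertion domain, the member AT4G19750 averaged 1.11 CPM in Ler. Its neighbour AT4G19760 was at 2.00 ± 1.92 CPM in Ler and 0.0632 ± 0.0625 CPM in Col, and AT4G19770 was at 29.2 ± 13.3 and 0.553 ± 0.844 CPM. The libraries of Ler were widely spread at all 3 of these genes. AT1G27570, annotated as a phosphatidylinositol kinase family protein, was at 8.07 ± 1.104 CPM in Ler beside the F-box gene AT1G27580 at 46.5 ± 3.40 CPM in Ler and 3.21 ± 0.501 CPM in Col. The haloacid dehalogenase gene AT2G36550 was at 1.31 ± 0.627 CPM in Ler. Its closest relative and neighbour AT2G36540 was at 4.34 ± 3.03 CPM in Ler and 0.0969 ± 0.0788 CPM in Col. The neighbour on the other side, AT2G36560, went the opposite way, at 0 CPM in Ler and 0.319 ± 0.335 CPM in Col (log2 difference -5.63, SE 0.89, adjusted p = 0.000812). That locus could be tested only through its Col counts. The pseudogene AT1G24370, 2 loci from AT1G24388, was at 78.8 ± 12.8 CPM in Ler and 0.339 ± 0.239 CPM in Col (log2 difference 7.91, SE 0.19, adjusted p = 5.37e-14). PRA1.A3 had no such neighbour. EIF3G1, which follows it, was at 154 ± 19.96 CPM in Ler and 164 ± 26.0 CPM in Col (log2 difference -0.15, SE 0.10, adjusted p = 0.262).

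The members belong to many families, each with few of them. Shares are read against the 0.402% of all loci at 1 CPM or more in Ler that were members, and no test was made. Of 100 NBS-LRR loci at that level, 2 were members, AT4G27190 at 1.22 CPM and AT5G46500. Of 147 cytochrome P450 loci, oxidising enzymes of specialised metabolism, 2 were members, CYP71B22 at 1.29 ± 0.541 CPM and the pseudogene AT2G05190 at 3.20 ± 0.782 CPM. Of 41 MATH/TRAF loci 1 was, AT2G04190 at 2.60 ± 0.490 CPM. Among 182 F-box, 331 receptor-like, 155 UDP-glycosyltransferase and 48 cysteine-rich peptide loci there was no member, where the overall share would itself give few or none. Loci annotated by name as transposable elements gave 3 of 40, namely the transposase gene AT1G40087, SADHU5-2 of the Sadhu noncoding retrotransposons at 5.98 ± 2.07 CPM, and AT5G33432, which is similar to an En/Spm transposon. That count rests on annotation words. By their closest protein, looked up afterwards, further members were related to transposons. AT1G08735, AT1G64240 and AT5G27345 matched Mutator-type transposases at 32.4%, 62.4% and 57.3% identity, and AT2G26630 matched a DDE endonuclease. AT2G03970 and AT1G35617 matched reverse transcriptases. AT1G42110, AT1G42705 and AT2G15940 matched DAYSLEEPER, a protein with a hAT transposase dimerization domain, at 25.5% to 27.7% identity. Loci whose annotation words class them as of unknown function supplied 33 members of 2919 at 1 CPM or more in Ler, out of 8850 listed. This class also rests on words and overlaps other groups. The 33 include HTT4, SADHU5-2, AT5G33432 and transposase-related loci such as AT5G27345.

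Other groups were looked up after the members' annotations had been read. Cysteine/histidine-rich C1 domain proteins, which are predicted to bind zinc, gave 4 members of 100 at 1 CPM or more in Ler. AT4G11540 was at 7.73 ± 1.07 CPM with no Col count, AT5G02340 at 4.74 ± 0.977 CPM, AT3G26250 at 1.56 ± 0.601 CPM and AT2G44400 at 1.21 ± 0.956 CPM (SD, n = 9 each). Their C1 neighbours did not all follow them. AT4G11550 and AT3G26240, beside AT4G11540 and AT3G26250, were higher in Ler by 0.79 (SE 0.15, adjusted p = 0.000558) and 0.90 (SE 0.17, adjusted p = 0.000787) on the log2 scale. Beside AT5G02340, AT5G02350 was at 4.07 CPM in Ler and 48.2 CPM in Col, a log2 difference of -3.77 (SE 0.14, adjusted p = 4.99e-12), and AT5G02330 was also lower in Ler, by -1.34 (SE 0.28, adjusted p = 0.00134). Both of these neighbours of AT5G02340 were thus lower in Ler, while the direction at AT5G02340 itself was set by the rule. Another place in the genome matches AT5G02340 at 95% identity or more, so its counts may be shared with that place.

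Single members of known families included PSEUDOSRKA (AT4G21370), the Col remnant of the S-locus receptor kinase by which related self-incompatible plants reject their own pollen. It was at 4.72 ± 0.771 CPM in Ler, with 1 count over Col. Its neighbour RK3 was at 0.983 CPM in Ler and 0.422 CPM in Col (log2 difference 1.65, SE 0.33, adjusted p = 0.00114). OFP9 (AT4G04030), an ovate family repressor of transcription, was at 1.14 ± 0.387 CPM. Its protein is 100% identical to part of AT3G54730, and 2 other places in the genome match it at 95% identity or more, so its counts may be shared with them. GLP6, a germin-like cell wall protein, was at 1.58 ± 1.02 CPM. AT4G11810 carries an SPX domain, the phosphate-sensing domain of plants, joined to a transporter domain. It ranged from 0.672 to 2.73 CPM in Ler and had 8 counts over Col. Its Ler level changed by -0.30 at 1 h (SE 0.51, adjusted p = 0.9) and by -0.48 at 2 h (SE 0.52, adjusted p = 0.729) on the log2 scale, which did not pass the threshold. Its closest relative AT4G22990, 85.4% identical, was at 0.929 CPM in Col and 1.14 CPM in Ler.

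Changes after the transfer were tested within Ler. The rule did not contrast the times, but it averaged over them, so a member that reached 1 CPM only through the times at which it was high had to differ between them. This holds for AT2G44400 and AT4G19750, at means of 0.228 and 0.196 CPM at 0 h, and their tests are not independent of the rule. All 75 passed the filter on low counts. Between 0 h and 1 h, 2 members passed an adjusted p of 0.05 (2.67%), where 6.82% of all 20599 tested loci did. Of these, 1 was higher and 1 lower at 1 h, against 4.26% of all loci higher and 2.55% lower. Between 0 h and 2 h 1 member passed, higher at 2 h (1.33%, against 2.8% of all loci, 2.19% higher and 0.607% lower). Between 1 h and 2 h 1 member passed, higher at 2 h (1.33%, against 1.1% of all loci, 0.699% higher and 0.403% lower). At an unadjusted p under 0.05 there were 7, 6 and 5 members, and 3808, 3223 and 2977 loci in all. The median log2 change over members was -0.11 at 1 h and -0.14 at 2 h, against -0.01 and -0.03 over all tested loci.

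AT2G44400, a C1 domain gene, was the member higher at 1 h and at 2 h. Its Ler values were 0.311, 0.181 and 0.192 CPM at 0 h, then 2.28, 2.70 and 1.64 CPM at 1 h, and 0.560, 1.86 and 1.14 CPM at 2 h. The 0 h libraries lay below all others, and the 1 h and 2 h ranges overlapped. The log2 change was 3.26 at 1 h (SE 0.56, adjusted p = 0.00207) and 2.40 at 2 h (SE 0.57, adjusted p = 0.0328). The transcribed pseudogene AT2G44383 beside it rose by 3.10 at 1 h (SE 0.48, adjusted p = 0.00143) and 2.26 at 2 h (SE 0.48, adjusted p = 0.0225). AT2G44383 averaged 0.0753 CPM in Col and had a lowest Ler value of 0.181 CPM. It reached the test only through its higher Ler libraries, so its rise has a like limit. The 1 h call of AT2G44400 held under each alternative that gave it a value. The 2 h call was lost when any 0 h replicate of Ler, or replicate 2 or 3 at 2 h, was left out, with adjusted p from 0.0561 to 0.145.

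AT1G51990, annotated as an O-methyltransferase and 48.3% identical to OMT1 of lignin and flavonol methylation, fell at 1 h. It was at 5.63, 7.02 and 6.33 CPM at 0 h, at 3.32, 3.80 and 2.50 CPM at 1 h, and at 6.68, 5.93 and 7.66 CPM at 2 h. The 1 h libraries lay below all the others. The log2 change was -0.97 at 1 h (SE 0.26, adjusted p = 0.0447) and from 1 h to 2 h it was 1.13 (SE 0.26, adjusted p = 0.0629), which passed with DESeq2 (adjusted p = 0.000449) and with the Ler libraries fitted alone (adjusted p = 0.0312). Both changes passed with the replicate number added to the edgeR fit (adjusted p = 0.0208 at 1 h and 0.0207 from 1 h to 2 h). The fall at 1 h missed the threshold without any 1 of the Ler replicates at 0 h or 1 h, or without replicate 1 or 3 at 2 h, with adjusted p up to 0.148.

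AT1G10880, a core-2/I-branching glycosyltransferase family gene, was at 6.29, 5.39 and 4.57 CPM at 0 h, at 2.62, 1.76 and 1.89 CPM at 1 h and at 8.96, 2.98 and 12.5 CPM at 2 h. The libraries at 2 h were far apart, and all 3 lay above those at 1 h. It rose from 1 h to 2 h by 2.02 on the log2 scale (SE 0.45, adjusted p = 0.0497), a value at the threshold. The call held without replicate 2 of Col at 0 h, any 1 Col replicate at 1 h or replicate 2 of Ler at 2 h. It was lost without any 1 of the other libraries, with adjusted p from 0.0547 to 0.266, and also with the 9 Ler libraries fitted alone (adjusted p = 0.0667). The change from 0 h to 1 h was -1.36 (SE 0.44, adjusted p = 0.0901). Adding the replicate number to the edgeR fit, both changes passed (adjusted p = 0.0250 from 0 h to 1 h and 0.0114 from 1 h to 2 h).

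**Figure D5:**
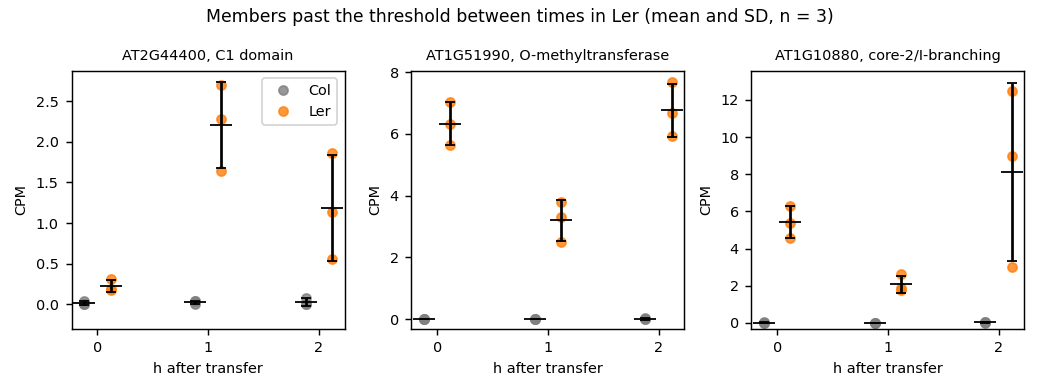
CPM of the 3 members past the threshold between times in Ler, by hours after transfer; points are libraries, bars the mean and SD of 3, grey Col and orange Ler. AT2G44400 is at 0.311 CPM or less in each Ler library at 0 h and 1.64 CPM or more at 1 h, and AT1G51990 is lowest at 1 h.

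AT4G19750 of the chitinase-type group had log2 changes of 2.54 at 1 h (SE 0.93, adjusted p = 0.138) and 3.32 at 2 h (SE 0.92, adjusted p = 0.0751), which did not pass. The 2 h value passed with DESeq2 (adjusted p = 0.0323). Both values passed with the replicate number added to the edgeR fit (adjusted p = 0.00979 at 1 h and 0.0049 at 2 h). Its values were 0.0777, 0.471 and 0.0384 CPM at 0 h, 1.33, 1.63 and 0.571 CPM at 1 h, and 3.32, 2.16 and 0.379 CPM at 2 h. Its neighbour AT4G19760, 87.4% identical in protein, rose in Ler by 4.74 at 1 h (SE 0.63, adjusted p = 0.000566) and 5.60 at 2 h (SE 0.63, adjusted p = 0.000437). AT4G19760 averaged 0.0632 CPM in Col and had a lowest Ler value of 0.0724 CPM. This neighbour too reached the test only through its higher Ler libraries. The 2 h range of the member overlapped its 0 h range.

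The thresholds of the rule had no gap behind them. Just inside by Ler level were AT4G19750 at 1.11 CPM and the pseudogene AT2G15940 at 1.11 CPM, and just outside were AT5G45113 at 0.948 CPM and the transposase gene AT1G64255 at 0.938 CPM. By Col counts, AT4G11810, AT4G19750 and AT5G02340 were inside at 8. AT1G30940, HTT1 and AT1G44510 were outside at 10, the last with 85.3 CPM in Ler.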

How the data were processed

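Raw read counts per locus were deposited by the authors, 1 column per library, for 9 Col and 9 Ler libraries. TopHat2, Bowtie2 and TAIR10 are named per the submitters' processing notes. The counting tool and annotation are not given in the sources used here. Features in all 18 libraries were used, 32852 of the 33602 listed for Col. Loci were matched to the RefSeq annotation of TAIR10.1 (32383 matched). Printed CPM are counts divided by the library total. Tests used edgeR 4.0.16 (R 4.3.3): filterByExpr, TMM scaling, a quasi-likelihood fit of all 18 libraries with 1 mean per group, and Benjamini-Hochberg adjustment over 20599 loci, with an adjusted p under 0.05 as the threshold. Log2 values come from this fit. DESeq2 1.42.0 was an alternative, as were other scalings, filters and each library left out. The steps were tested on simulated counts. Similarity came from BLAST searches of the TAIR10.1 genome and its proteins.

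The members and the lists were chosen with earlier results of these data known. Named members were the 10 highest in Ler, those past the threshold between times, those near another member or in a family with 2 or more, those nearest each threshold, and noncoding or pseudogene members. Others were named after their values were seen, among them PSEUDOSRKA, HTT4, OFP9, GLP6, AT4G11810, the overlapping loci and the loci with changed neighbours.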

Additional observations from a re-analysis of the deposited data

How the results depend on the processing

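The counts of members past the threshold between times were small and moved with the test. For 1 h against 0 h the count was 2, and it was 1 with no filter on low counts, 1 with loci kept from 1 CPM upwards (where 45 members were tested), 7 with the replicate number as a block, 4 with DESeq2 and 1 to 4 when single libraries were left out. For 2 h against 0 h the count was 1, and it was 0 with loci kept from 1 CPM upwards, 2 with the replicate block, 2 with DESeq2 and 0 to 1 with libraries left out. For 2 h against 1 h the count was 1, and it was 2 with the replicate block, 2 with DESeq2 and 0 to 2 with libraries left out. The members added by the block were AT1G10880, AT1G44045, AT3G29636, AT4G19750 and AT4G27890 at 1 h (adjusted p from 0.00828 to 0.025), AT4G19750 at 2 h (adjusted p = 0.0049) and AT1G51990 from 1 h to 2 h (adjusted p = 0.0207). The block also raised the calls over all loci, from 6.82% to 14.5% at 1 h. Nothing in the labels ties a number to a shared batch. In the data, libraries with equal numbers mostly deviated together, at a mean correlation of 0.352 and over 0.1 in 41 of 45 pairs, against a mean of -0.174 for other numbers. Deviations were taken from each group's mean, which ties the second mean to the first, so the second adds nothing of its own. The lowest pair was at 0.00574, short of the criterion that every pair exceed 0.1, so the block was kept as an alternative, with a hint from the data that the numbers are shared. Whether the unblocked or the blocked counts are nearer the truth was not tested.

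Neighbours higher in Ler numbered 29, 61 with 3 loci on each side and 28 to 30 with libraries left out. The number of members was 75, and it was 25 with 0 Col counts, 44 at 2 CPM, 127 at 0.5 CPM, 47 with 1 CPM in every Ler library and 74 to 77 with libraries left out. Of members within 5 loci of another there were 8, then 4 at 2 CPM and 0 with 0 Col counts. None of the log2 changes of members with an unadjusted p under 0.05 changed sign. Apart from what the alternatives' own construction shows, the cause was not tested. Depth limits the precision of the low members, of which the lowest had 1 count in a Ler library.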

Other observations

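A few members followed the replicate number rather than the time in Ler, a pattern noticed in the values and not tested. The noncoding RNA AT2G15555 was at 12.6, 8.79 and 7.46 CPM in replicate 2 of 0 h, 1 h and 2 h, and between 1.29 and 2.13 CPM in the other 6 libraries. The En/Spm-like pseudogene AT5G33432 was also highest in replicate 2 at each time, at 1.99, 3.35 and 1.86 CPM, and no higher than 1.03 CPM elsewhere. GLP6 went the other way, at 0.471, 0.368 and 0.373 CPM in replicate 2 and at 1.36 CPM or more in the other 6. For each of these 3 loci the replicate 2 libraries did not overlap the rest. They were picked for this pattern, and its share over all loci was not counted. Over all tested loci, libraries with equal numbers also mostly deviated together, as given above.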
